A study of Mus musculus with 18 samples.

Results

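Immediate early genes are the first genes that a cell transcribes after a stimulus, from factors already present and without new protein synthesis. The 10 described here are Fos, Fosb, Jun, Junb, Egr1, Atf3, Ier2, Btg2, Nr4a1 and Myc. They were taken by symbol from a count table of 46983 gene symbols, and all 10 were in it. Their levels were followed across 18 mouse heart libraries in 6 groups of 3.

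All mice were adults aged 8 to 10 weeks at the operation, which was a sham or a ligation of the left anterior descending artery that causes a myocardial infarction (MI), and RNA was collected 6 weeks later. Total RNA of the whole heart was sequenced after infarction from control and from Salv cKO mice. RNA of cardiomyocytes, obtained by translating ribosome affinity purification (TRAP), which recovers RNA bound to tagged ribosomes, was sequenced from infarcted and sham hearts of both genotypes. No total RNA of sham hearts was analysed here. Salv is Salvador, encoded by Sav1, a scaffold of the Hippo kinase cascade that restrains cardiomyocyte growth, and cKO marks a conditional knockout. The design text calls the controls wild type. The Cre driver, the inducing agent, the floxed allele and the transgene that tags the ribosomes are not stated in the sources used here, nor is whether each library is 1 animal, so each p-value speaks of the spread among these libraries, which may be technical.

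Library totals ran from 3240871 to 24135877 counts, and 3 counts in 1 library, the floor used here, stood for 0.124 to 0.926 CPM (counts scaled to library size). Intervals and floors cover counting error only. Sav1 itself ran from 1.14 to 10.1 CPM in sham Salv cKO and from 6.24 to 8.79 in sham control, and by edgeR it did not pass between genotypes in any fraction (adjusted p = 0.53 to 0.986), so it does not check the genotype labels. Of the libraries, 2 had Y chromosome counts, sham control 2 with 567 and sham Salv cKO 3 with 659, against at most 7 in each other. The cardiomyocyte label of TRAP RNA was checked on 10 markers such as Tnni3 and Myl2, whose summed level was 135815 to 206179 CPM in TRAP and 31464 to 59910 in total RNA. Of these 10, 7 were higher in TRAP RNA and 2, Actc1 (log2 -0.53) and Pln (-0.47), lower by edgeR, where 34.4% of all genes were higher and 39.9% lower. Markers of other cells were lower for 7 of 10 fibroblast, 8 of 10 endothelial, 4 of 8 leukocyte and 4 of 8 mural cell genes tested. For leukocyte and mural cell genes this lies near the 39.9% of all genes. Gsn (1.06), Flt1 (1.77), Egfl7 (0.93), C1qa (2.06), Cd74 (0.68) and Cspg4 (0.54) were higher in TRAP RNA. Summed levels in TRAP and total RNA overlapped for fibroblast (2105 to 4346 and 2740 to 5145 CPM), endothelial (406 to 933 and 570 to 711) and leukocyte markers (340 to 650 and 298 to 558). Mural cell sums did not overlap (188 to 305 and 601 to 947). None of the 10 fibroblast markers was at 0 in any TRAP library, while the B cell marker Cd79a was at 0 in 10 of 12 and the T cell marker Cd3e in 5 of 12. Over all 18 libraries Cd79a was at 0 in 10 and Cd3e in 7, so Cd3e was also at 0 in some total RNA libraries. In bulk RNA, fewer cells of a type and less RNA per cell cannot be told apart.

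Stimuli such as growth factors, stretch, ischaemia and adrenergic signals reach these genes through MAP kinases, which act on serum response factor and its TCF partners, and through kinases that act on CREB at cyclic AMP response elements. Fos, Fosb, Jun and Junb encode subunits of the AP-1 transcription factor, and Atf3 encodes a stress-induced factor of the same bZIP family. Egr1 encodes a zinc finger factor, Nr4a1 an orphan nuclear receptor, Myc a growth-promoting factor that works with Max, Ier2 a nuclear protein, and Btg2 an antiproliferative protein that recruits the deadenylase complex. In the heart the transcripts surge soon after injury or handling and are then lost quickly, in part through AU-rich elements in their 3′ untranslated regions.

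Promoter sequences are shown for what these genes share outside the counts. RefSeq (GRCm38.p6) gave the 250 bases before the start site for Fos, Fosb, Jun, Junb, Atf3, Btg2 and Nr4a1. Egr1, Ier2 and Myc are named only. The motif TGACG, the core of the cyclic AMP response element TGACGTCA, was present on either strand in 6 of the 7, against 17.8% of 32851 promoters of the same length. The full TGACGTCA was in 1, Btg2, starting 166 bases before the start site, against 1.55% of promoters. The 3 sequences below are those with the full element, with the most core matches (Nr4a1, 4 matches) and with matches beside a TATA box (Fos), and capitals mark TGACG or its reverse complement CGTCA, the full element in Btg2, and TATAAA in Fos.

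Btg2, chr1:134079156-134079405, minus strand: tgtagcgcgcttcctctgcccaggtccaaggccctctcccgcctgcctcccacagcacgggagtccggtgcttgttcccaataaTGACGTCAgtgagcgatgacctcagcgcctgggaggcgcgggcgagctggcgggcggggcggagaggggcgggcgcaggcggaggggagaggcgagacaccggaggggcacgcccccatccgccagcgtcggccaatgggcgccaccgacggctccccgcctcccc
Nr4a1, chr15:101266596-101266845, plus strand: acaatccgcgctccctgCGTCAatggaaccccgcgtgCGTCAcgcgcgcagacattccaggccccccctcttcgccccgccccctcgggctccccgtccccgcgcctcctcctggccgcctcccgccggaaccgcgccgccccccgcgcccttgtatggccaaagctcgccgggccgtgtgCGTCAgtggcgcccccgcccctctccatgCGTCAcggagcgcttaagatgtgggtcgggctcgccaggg
Fos, chr12:85473640-85473889, plus strand: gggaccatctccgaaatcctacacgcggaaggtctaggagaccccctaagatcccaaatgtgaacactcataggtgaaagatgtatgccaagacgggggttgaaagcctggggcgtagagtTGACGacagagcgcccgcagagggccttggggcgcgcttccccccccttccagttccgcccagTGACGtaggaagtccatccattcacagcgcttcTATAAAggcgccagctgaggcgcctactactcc

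The matches in Nr4a1 began 233, 213, 69 and 40 bases before the start site, and those in Fos 129 and 66 bases before it, ahead of TATAAA at 33. TATAAA was in 1 of the 7 against 12.4% of promoters, and the EGR motif GCGNGGGCG was in 3 of the 7 (Fosb, Btg2 and Nr4a1) against 4.7%. The CArG box bound by serum response factor was in 0 of the 7 (1.47% of promoters), and the AP-1 motif TGANTCA also in 0 (6.75%). Both strands were searched, TGACG lies inside TGACGTCA, and these are matches of letters in this window only. In the 3′ untranslated regions of GENCODE M21 the AU-rich pentamer ATTTA was counted a median of 2.5 times per member, or 2.89 per kb, against 1 time and 1.2 per kb over 11905 protein-coding genes tested. A pentamer overlapping one already counted was left out, for members and all genes alike. Regions with 3 or more pentamers belonged to 5 of the 10 members (50%) against 34.5% of genes. Fos held the nonamer TTATTTATT, as 7.17% of genes did.

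Jun shares 232 exon bases with its antisense gene Junos, and Junb shares 173 with Prdx2 on the other strand. Since the strand setting of the counting is not given in the sources used here, reads there could count for either gene. Junos had 67 counts over all libraries. Prdx2 had log2 fold changes of 0.13 and 0.12 between infarction and sham in control and Salv cKO, both with an adjusted p over the threshold (0.756 and 0.627), and values for Junb stand beside these below.

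**Figure D1:**
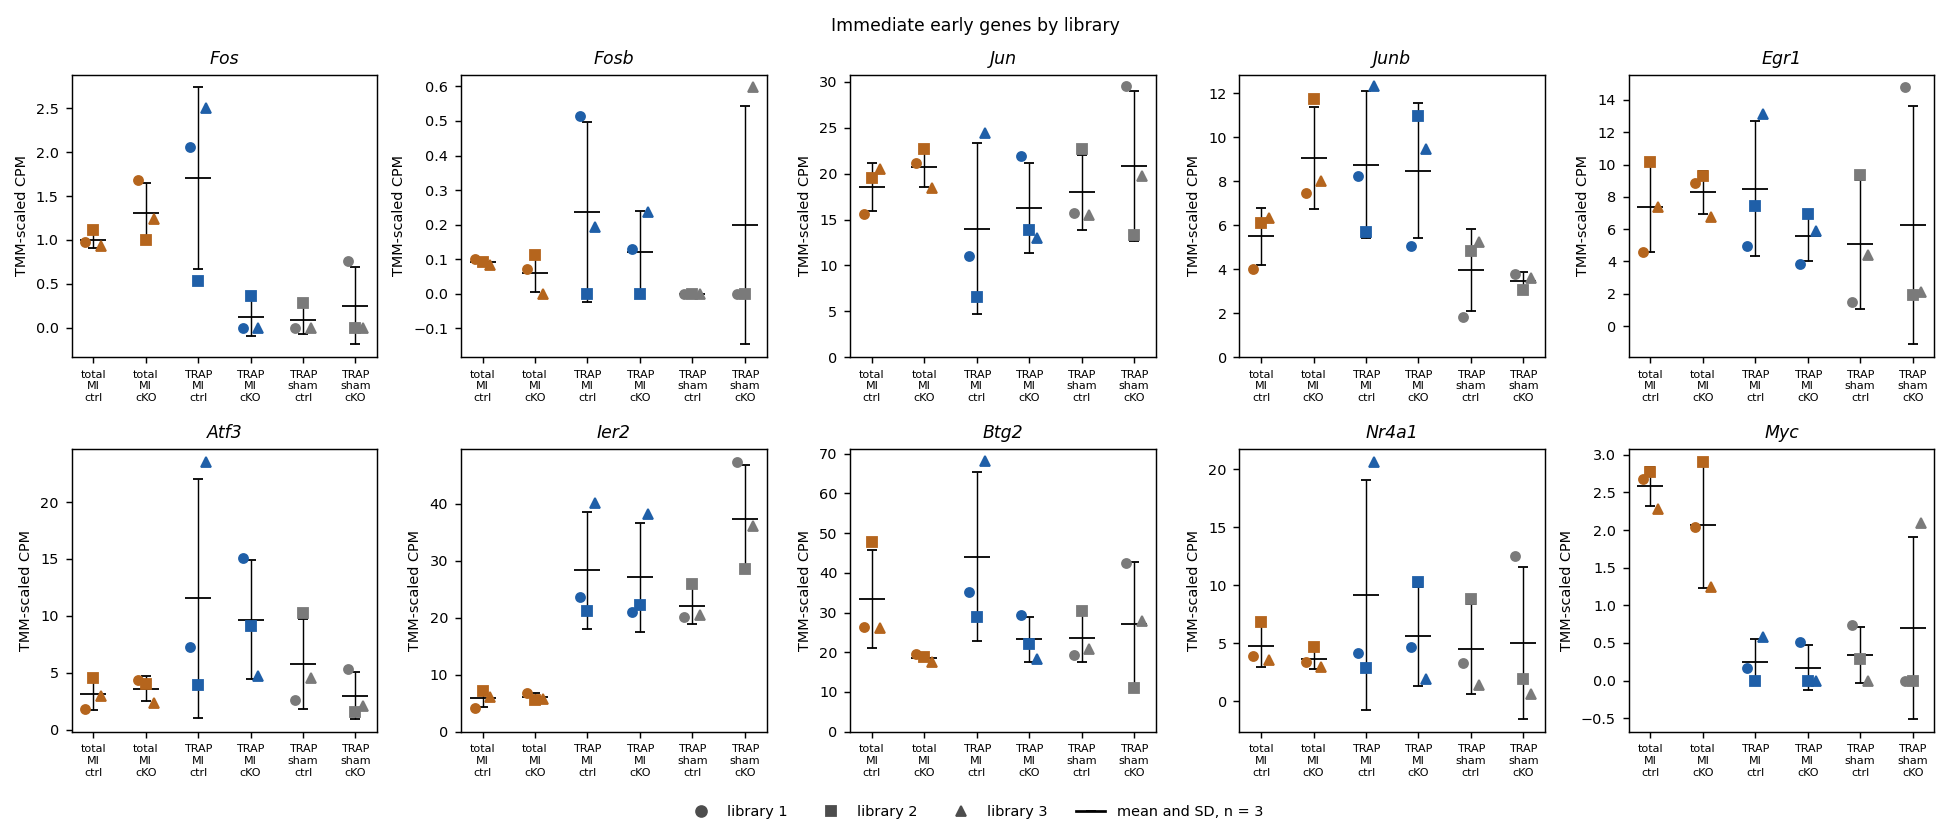
Level of each of the 10 genes in all 18 libraries, as TMM-scaled CPM on a linear axis that differs between panels. Brown points are total RNA, blue points TRAP RNA after infarction and grey points TRAP RNA after sham, with bars for the mean ± SD of 3 libraries. Ier2 lies at 20.1 to 47.4 CPM in TRAP RNA and at 4.19 to 7.13 in total RNA, and Myc lies lower in TRAP than in total RNA after infarction.

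At 6 weeks after surgery the 10 genes together took few counts. Their summed level was 61.3 to 206 CPM in a TRAP library and 64.2 to 106 CPM in a total RNA library, on the TMM scale used for all levels below. Divided by exon length, Btg2 was highest in total RNA of control hearts at 12.2 ± 4.53 CPM per kb (SD, n = 3), followed by Jun at 5.82 ± 0.824 and Ier2 at 3.83 ± 0.985, and the libraries of these 3 genes did not overlap. Junb (2.39), Egr1 (1.65), Atf3 (1.44), Nr4a1 (1.36) and Myc (0.95 CPM per kb) followed, each overlapping its neighbour in that order. Fos was below them at 0.427 ± 0.0402 and Fosb last at 0.0148 ± 0.00128 CPM per kb.

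In TRAP RNA the order began with Ier2 in all 4 groups, at means of 14.5 to 24.5 CPM per kb, and Btg2 came next at 8.48 to 16.1. Ier2 and Btg2 overlapped in infarcted control (13.9 to 26.3 and 10.5 to 24.9 CPM per kb) and not in the other 3 TRAP groups. Jun, Atf3, Junb, Nr4a1 and Egr1 followed in varying order, each overlapping its neighbour, except that Jun lay above the next gene without overlap in both sham groups. In CPM, Jun ran from 6.57 to 29.6 in TRAP and from 15.6 to 22.7 in total RNA, Egr1 from 1.46 to 14.8 and from 4.59 to 10.2, and Nr4a1 from 0.597 to 20.6 and from 2.94 to 6.85. Fos, Fosb and Myc, at the end, did not pass the filter on low counts in TRAP RNA. The filter left 7 members for tests in TRAP RNA, and 9, all but Fosb, in total RNA and in the comparison of both fractions.

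Fosb was at or below the floor of 3 counts in all 18 libraries. It had 3, 1 and 1 counts in total RNA of control hearts, 1, 1 and 0 in Salv cKO, and 0 to 3 in each TRAP library, and no fold is given.

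TRAP against total RNA of infarcted hearts asks which transcripts were more or less abundant on cardiomyocyte ribosomes than in the whole heart, a contrast in which cell type, ribosome binding and RNA preparation cannot be told apart. In edgeR's quasi-likelihood test, with an adjusted p below 0.05 over all genes called passing, 3 of the 9 members tested passed, where 74.2% of all 13267 genes tested passed. At an unadjusted p under 0.05 there were 4 members, against 75.7% of genes. Ier2 and Atf3 were higher in TRAP RNA and Myc was lower. The median log2 difference of the 9 was 0.31, and that of all genes -0.15.

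Ier2 lay at 23.7, 21.1 and 40.1 CPM in TRAP RNA of infarcted control, at 20.9, 22.3 and 38.1 in infarcted Salv cKO, at 4.19, 7.13 and 6.17 in total RNA of control and at 6.87, 5.58 and 5.76 in Salv cKO. All 6 TRAP libraries lay above all 6 total RNA libraries, a separation seen in 25.2% of genes. The log2 difference was 2.25 (SE 0.21, edgeR adjusted p = 1.75e-09), and it stayed between 2.08 and 2.33 whichever of the 12 libraries was left out.

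Atf3, the stress-induced bZIP factor, lay at 7.21, 3.91 and 23.5 CPM in TRAP RNA of control and at 15.1, 9.14 and 4.73 in Salv cKO, against 1.81, 4.54 and 2.96 and 4.39, 4.02 and 2.37 in total RNA. The lowest TRAP library lay inside the range of total RNA, and the other 5 lay above it. The log2 difference was 1.71 (SE 0.42, edgeR adjusted p = 0.00175). It was 1.2 to 1.91 without 1 library, with a highest adjusted p of 0.00585.

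Myc showed the opposite. It had 80, 30 and 27 counts in total RNA of control and 28, 26 and 11 in Salv cKO (2.68, 2.78, 2.28, 2.05, 2.90 and 1.24 CPM), and 1, 0, 3, 4, 0 and 0 counts in the 6 TRAP libraries, the highest of which was 0.578 CPM. The fractions did not overlap, with TRAP RNA the lower, as in 28% of genes. The log2 difference was -3.23 (SE 0.58, edgeR adjusted p = 3.08e-05), and from -5.35 to -2.95 without 1 library. From the summed counts, 202 against 8, the level in total RNA was 10.2 times that in TRAP RNA (95% exact interval 5.10 to 24.04). In sham TRAP RNA Myc had 2, 1 and 0 counts in control and 0, 0 and 7 in Salv cKO, the 7 in the library with Y chromosome counts.

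The other 6 members did not pass. Fos had a log2 difference of -1.28 (SE 0.60, edgeR adjusted p = 0.0589), Nr4a1 of 0.82 (SE 0.48), Jun of -0.34 (SE 0.23) and Egr1 of -0.16 (SE 0.26). The Fos value averages genotypes that went opposite ways. From summed counts, 28 against 52, Fos in control was 1.70 times as high in TRAP as in total RNA (95% exact interval 1.03 to 2.74). In Salv cKO, 43 against 2, it was 11.9 times as high in total as in TRAP RNA (3.10 to 101). These intervals do not cover the spread between libraries. Btg2 (0.39, SE 0.21) and Junb (0.31, SE 0.24) had positive values that became -0.23 and -0.29 with no scaling beyond the library total, a setting that moved the median of all genes from -0.15 to -0.74. Prdx2, which overlaps Junb, was higher in TRAP RNA with no overlap of the fractions (log2 1.14, SE 0.13, edgeR adjusted p = 4.75e-08).

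**Figure D2:**
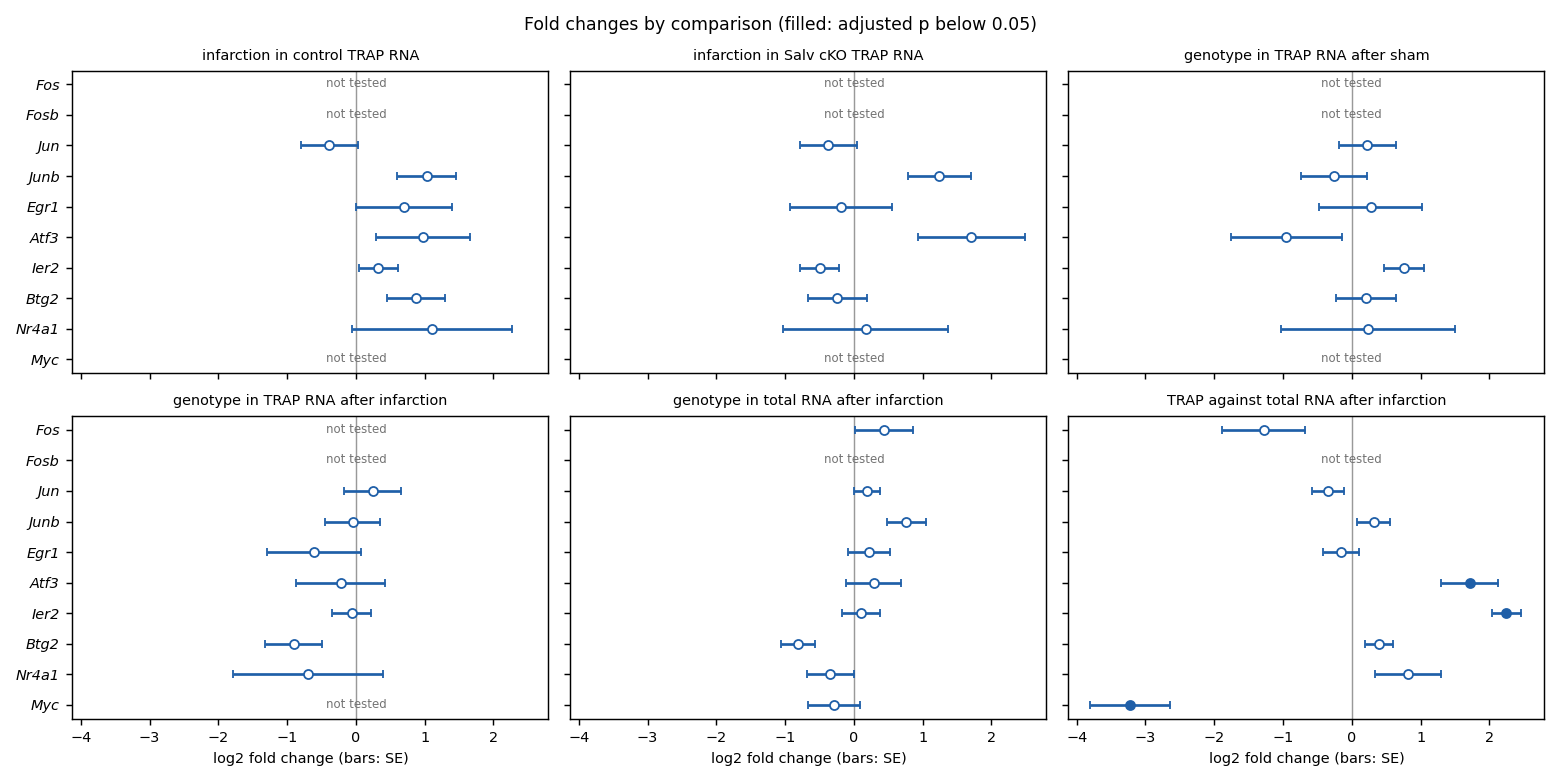
Log2 fold changes with their standard errors for each member tested, by comparison. Ier2, Atf3 and Myc in TRAP against total RNA are the values that pass, at 2.25, 1.71 and -3.23, and the other members' values lie past the threshold in no comparison.

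Infarction against sham asks how TRAP RNA of each genotype differed 6 weeks after ligation. By edgeR 0 of 7 members passed in either genotype, where 1.08% of the 11393 genes tested passed in control and 18.2% in Salv cKO. At an unadjusted p under 0.05 there was 1 member in control and 2 in Salv cKO, against 14.1% and 32.3% of genes. DESeq2 called 0 members in both, against 466 of 8773 and 2299 of 11529 genes with an adjusted p. In control 6 of the 7 values were positive with a median of 0.87 (all genes -0.02), and in Salv cKO 3 of 7 with a median of -0.19 (all genes 0.02).

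Cell type markers also differed between infarcted and sham Salv cKO libraries, where 10.6% of all genes tested fell and 7.56% rose. Of 10 cardiomyocyte markers 4 fell, the ryanodine receptor gene Ryr2 (log2 -2.12, SE 0.36, edgeR adjusted p = 0.00216), Tnni3 (-0.79), Myl2 (-0.61) and Myl3 (-0.61), and Pln rose (0.50). Their summed level was 135815 to 160941 CPM after infarction and 186353 to 206179 after sham. Of these, 2 fell with no scaling beyond the library total, Tnni3 and Ryr2, and 3 rose, Tnnt2, Actc1 and Pln. That setting called 2886 of 11393 genes in either direction and moved the median of all genes from 0.02 to 0.35.

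Of 10 fibroblast markers 9 had positive values, with a median of 1.23, and 1, Lum, passed (log2 0.92, SE 0.26, edgeR adjusted p = 0.0228), with sums of 2947 to 3960 CPM after infarction and 2659 to 2841 after sham. The mural cell marker Pdgfrb rose (1.18, SE 0.30) and Kcnj8 fell (-0.73, SE 0.25), of 7 tested. Of 8 leukocyte markers tested 7 had negative values (median -0.75) and C1qa fell (-0.84, SE 0.22), and of 10 endothelial markers Flt1 fell (-1.24, SE 0.20). With no scaling beyond the library total C1qa and Kcnj8 did not pass and Flt1 fell. Lum and Pdgfrb rose in that setting, as did Pdgfra, Tcf21, Esam, Cspg4 and Myh11, where 2886 of 11393 genes were called. In control, where 1.08% of genes passed, Flt1 was the 1 marker that passed by edgeR, also lower (-0.89, SE 0.20, edgeR adjusted p = 0.0391). DESeq2, which called 466 of 8773 genes there, also called Gsn higher and Ryr2 lower. With no scaling beyond the library total 0 of 11393 genes passed in control. The part of these marker changes in the results on infarction was not tested.

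Junb lay higher after infarction in both genotypes, with no overlap of libraries. In control it was 8.24, 5.68 and 12.3 CPM after infarction and 1.83, 4.82 and 5.25 after sham. In Salv cKO it was 5.04, 11.0 and 9.47 CPM after infarction and 3.79, 3.05 and 3.58 after sham. Groups separated upward like this in 9.6% and 18.4% of all genes.

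The log2 difference of Junb was 1.03 in control (SE 0.42, edgeR adjusted p = 0.249), and Salv cKO had 1.24 (SE 0.46, adjusted p = 0.0643). The latter passed without infarcted Salv cKO library 1 (adjusted p = 0.048) and with no scaling beyond the library total (log2 1.57, adjusted p = 0.0191). Prdx2 had the values given above.

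Atf3 had a log2 difference of 1.71 in Salv cKO (SE 0.78, edgeR adjusted p = 0.149) and of 0.98 in control (SE 0.69, adjusted p = 0.588). Its sham libraries lay at 2.56, 10.2 and 4.49 CPM in control and at 5.31, 1.52 and 2.09 in Salv cKO, overlapping the infarcted ones given above in both genotypes. In Salv cKO it passed with the 2 groups fitted alone (log2 1.73, adjusted p = 0.0299) and with no filter on low counts (1.78, adjusted p = 0.00227).

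Btg2 lay at 35.2, 28.8 and 68.2 CPM in infarcted control and at 19.4, 30.4 and 20.9 in sham control, with a log2 difference of 0.87 (SE 0.42, edgeR adjusted p = 0.383). It passed there with no filter on low counts (log2 0.88, adjusted p = 0.0249). In Salv cKO it lay at 29.4, 22.1 and 18.2 CPM after infarction and at 42.4, 11.0 and 27.8 after sham (log2 -0.24, SE 0.43). The groups overlapped in both genotypes.

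The remaining tested members overlapped in both genotypes. Nr4a1 had values of 1.10 in control (SE 1.16) and 0.17 in Salv cKO (SE 1.198), Egr1 of 0.70 (SE 0.70) and -0.19 (SE 0.73), Ier2 of 0.33 (SE 0.29) and -0.50 (SE 0.29), and Jun of -0.39 (SE 0.41) in control and -0.37 (SE 0.41) in Salv cKO. Several control values rested on infarcted control library 3: without it Atf3 was -0.09, Ier2 -0.02 and Nr4a1 -0.32. In Salv cKO, without sham library 1, Egr1 was 1.44 and Nr4a1 2.20.

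In TRAP RNA most Fos counts came from infarcted control. It had 12, 3 and 13 counts there (2.06, 0.533 and 2.51 CPM), 0, 2 and 0 in infarcted Salv cKO, 0, 1 and 0 in sham control and 2, 0 and 0 in sham Salv cKO. The 2 libraries above the floor were infarcted control libraries 1 and 3.

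Summed Fos counts, 28 against 1, gave a level in infarcted control 32.6 times that in sham control (95% exact interval 5.40 to 1335), and 28 against 2 a level 14.7 times that in infarcted Salv cKO (3.70 to 127). In a fit with no filter, edgeR's log2 values for Fos were 4.26 for infarction in control (SE 1.504, adjusted p = 0.142) and -3.58 for genotype after infarction (SE 1.35, adjusted p = 0.525). These intervals do not cover the spread between libraries, and neither test passed.

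Genotype was compared in 3 settings, and asks how these genes differed with loss of Salvador. By edgeR 0 of 7 members passed in TRAP RNA after infarction (0.334% of genes), 0 of 7 in TRAP RNA after sham (2.55%) and 0 of 9 in total RNA after infarction (0.255%). At an unadjusted p under 0.05 there were 1, 1 and 2 members, against 7.36%, 18.5% and 13.8% of genes. DESeq2 called 0 members in each, against 74 of 13367, 603 of 9692 and 151 of 15360 genes with an adjusted p. Median log2 values of the members were -0.22, 0.23 and 0.19, against 0.0042, -0.026 and 0.016 over all genes. Leukocyte marker sums in total RNA did not overlap between genotypes (298 to 358 CPM in control, 412 to 558 in Salv cKO). Nor did cardiomyocyte sums in infarcted TRAP RNA (165328 to 178470 and 135815 to 160941). The same held for endothelial sums in sham TRAP RNA (671 to 689 and 703 to 933). Sums of the other marker lists overlapped in each setting, and the part of these sums in the genotype results was not tested.

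Btg2 had negative values in both fractions of infarcted hearts. In total RNA it lay at 26.4, 47.8 and 26.1 CPM in control and at 19.5, 18.9 and 17.6 in Salv cKO, so each Salv cKO library lay below each control library, as in 11% of genes. The log2 difference was -0.81 (SE 0.24, edgeR adjusted p = 0.232), and it was -0.45 to -0.98 without 1 library. It passed with no filter on low counts (log2 -0.86, adjusted p = 0.0118).

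In TRAP RNA after infarction the log2 difference of Btg2 was -0.90 (SE 0.42, edgeR adjusted p = 0.677), and the highest Salv cKO library, 29.4 CPM, lay above the lowest control library, 28.8. It was -0.43 without infarcted control library 3. After sham it was 0.21 (SE 0.44), and the genotype effect in infarcted less that in sham hearts was -1.11 (SE 0.60, edgeR adjusted p = 0.472).

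Junb lay higher in total RNA of Salv cKO, at 7.46, 11.7 and 8.03 CPM, than of control, at 4.02, 6.11 and 6.34, with no overlap, as in 8.31% of genes. The log2 difference was 0.76 (SE 0.28, edgeR adjusted p = 0.283). In TRAP RNA it was -0.05 after infarction (SE 0.40, or 0.07 with no scaling beyond the library total) and -0.26 after sham (SE 0.48). The genotype effect in TRAP less that in total RNA was -0.83 (SE 0.48, edgeR adjusted p = 0.429).

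Ier2 lay higher in sham Salv cKO, at 47.4, 28.6 and 36.1 CPM, than in sham control, at 20.1, 25.8 and 20.4, with no overlap, as in 9.73% of genes. The log2 difference was 0.76 (SE 0.29, edgeR adjusted p = 0.158), and 0.54 to 0.92 without 1 library. After infarction it was -0.06 (SE 0.28), and with no scaling beyond the library total 0.07.

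The remaining members overlapped between genotypes in all 3 settings. After sham, Nr4a1 was 3.30, 8.80 and 1.37 CPM in control and 12.5, 1.90 and 0.597 in Salv cKO, with a log2 difference of 0.23 that became -1.80 without Salv cKO library 1. Egr1 was 1.46, 9.36 and 4.41 CPM in sham control and 14.8, 1.90 and 2.09 in sham Salv cKO, with a difference of 0.27 that became -1.36 without the same library. After infarction, Atf3 and Nr4a1 went from -0.22 and -0.70 to 0.84 and 0.71 without infarcted control library 3.

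Fos in total RNA had 29, 12 and 11 counts in control and 23, 9 and 11 in Salv cKO (0.972, 1.11, 0.93, 1.68, 1.01 and 1.24 CPM), a log2 difference of 0.44 (SE 0.43, edgeR adjusted p = 0.665). In the fit of both fractions its genotype effect in TRAP less that in total RNA was -4.17 (SE 1.17), with an unadjusted p of 0.00172 and an edgeR adjusted p of 0.1. DESeq2 gave -4.28 (adjusted p = 0.0663). It was the 1 member of 9 at an unadjusted p under 0.05 there, against 14.8% of genes. By edgeR 0 of 9 passed, against 0.43% of genes, and also 0 by DESeq2, which called 272 of 13183 genes.

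For genotype by surgery 0 of 7 members passed and 0 had an unadjusted p under 0.05, where 0% of genes passed and 12.6% had such a p. DESeq2 gave no member an adjusted p there. The values ran from -1.11 (Btg2) to 0.73 (Atf3), with a median of -0.82 against 0.05 over all genes, and Ier2 had -0.82 (SE 0.41, edgeR adjusted p = 0.408). Infarction and genotype effects share the infarcted and sham libraries between them, so these values are not independent of those above.

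**Figure D3:**
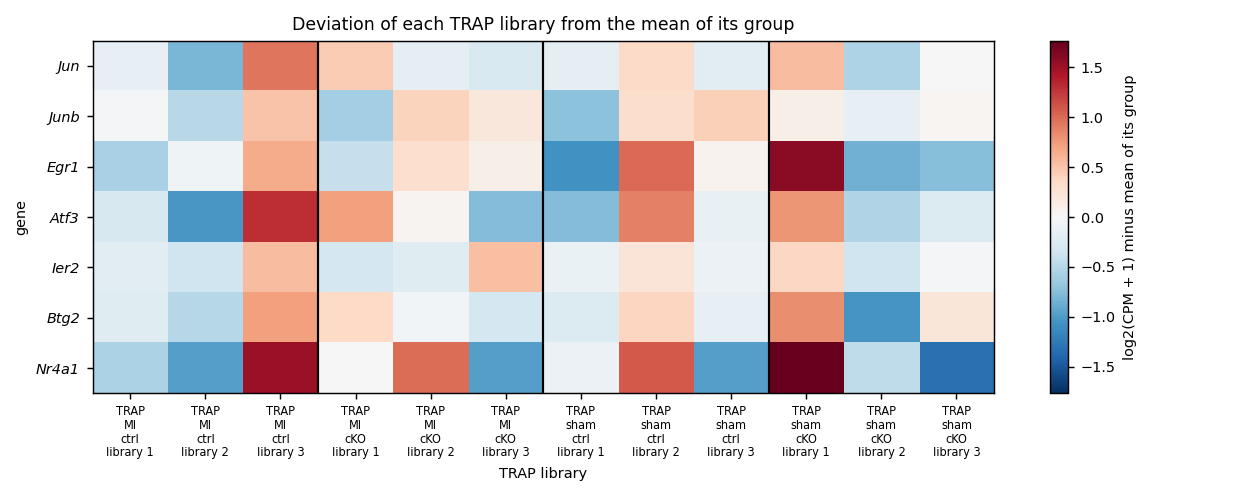
Deviation of each tested member from the mean of its own group, as log2(CPM + 1), in each library. In TRAP RNA all 7 members lie highest of their group in library 3 of infarcted control and library 1 of sham Salv cKO, and 6 of 7 lie highest in sham control library 2.

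The members varied together between libraries of the same group. After each group's mean was taken from log2(CPM + 1), all 21 pairs of the 7 members tested in TRAP RNA had a positive Pearson r over the 12 libraries, with a median of 0.61. Over 64894528 pairs of genes tested, 50.1% were positive and the median was 0.001. The median of the member pairs was 0.53 to 0.739 without any 1 library, with 21 of 21 positive each time. In the 6 total RNA libraries 31 of 36 pairs were positive, with a median of 0.507 against 0.012 over all gene pairs. These points share libraries, so each r describes these libraries and carries no p.

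The libraries behind this can be named. All 7 genes were highest in library 3 of infarcted control, with a summed level of all 10 members of 206 CPM against 97.2 and 76.9 in libraries 1 and 2. All 7 were also highest in library 1 of sham Salv cKO, with 157 CPM against 61.3 and 94.6. In sham control 6 of 7, all but Junb, were highest in library 2, with 113 CPM against 65.2 and 72.3. Infarcted Salv cKO had no such library, at 102, 96.0 and 91.6 CPM.

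In total RNA, library 2 of control was highest for 7 of 9 members, all but Jun and Junb, with 106 CPM against 64.2 and 76.4. Salv cKO library 2 was highest for 5 and library 1 for 4.

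Marker sums lay at an end of their group's range for some lists in these libraries and not for others. Infarcted control library 3 had the highest fibroblast sum of its group (4346 CPM, range 3688 to 4346) and the highest leukocyte sum (549, range 410 to 549). Its cardiomyocyte (168214, range 165328 to 178470), endothelial (555) and mural cell sums (248) lay between those of the other libraries of its group. Sham control library 2 had the highest fibroblast (4111, range 2105 to 4111) and leukocyte sums (650, range 340 to 650), the lowest cardiomyocyte sum (148505, range 148505 to 199342) and Y chromosome counts. Sham Salv cKO library 1 had the highest fibroblast sum (2841, range 2659 to 2841) and the lowest cardiomyocyte sum (186353, range 186353 to 206179). Total RNA control library 2 had the lowest cardiomyocyte sum (31464, range 31464 to 50545) and the highest fibroblast and leukocyte sums of its group (3908 and 358). Its endothelial (709) and mural cell sums (947) were also the highest, as were the mural cell sums of sham control library 2 (279) and sham Salv cKO library 1 (255). Sham Salv cKO library 1 had the lowest endothelial sum (703, range 703 to 933) and a leukocyte sum inside its group's range (497, range 436 to 559). The endothelial sum of sham control library 2 lay inside its range too (678, range 671 to 689). The part of these sums in the result was not tested. Infarcted control library 3, sham Salv cKO library 1 and total RNA control library 2 also had the fewest counts of their groups (5916285, 3240871 and 6451570). The sums of 11 heat shock and stress chaperone genes were not highest in these libraries, and were lowest in sham control library 2 (3273 CPM, range 3273 to 3942) and in total RNA control library 2 (783, range 783 to 1162).

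The spread of the members between replicate TRAP libraries differed by gene. The biological coefficient of variation from edgeR was 0.923 for Nr4a1, above 99.8% of genes tested, 0.579 for Egr1 (above 98.4%) and 0.563 for Atf3 (98.1%). It was 0.355 for Btg2, 0.34 for Jun, 0.323 for Junb and 0.244 for Ier2, where the median of all genes was 0.245. The trend at each gene's own abundance was 0.324 for Nr4a1, 0.319 for Egr1 and 0.3 for Atf3. For Btg2 it was 0.216, for Jun 0.24, for Junb 0.319 and for Ier2 0.217, so Junb lay near its trend. In total RNA the coefficient was lower for the same genes, from 0.178 for Jun to 0.314 for Atf3, with a median over all genes of 0.208.

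The pairs that followed each other most closely in TRAP RNA were Jun with Atf3 (r = 0.93 within groups) and Jun with Btg2 (0.904). Genes outside the list were ranked by how closely their log2(CPM + 1) followed the members' mean over the 12 TRAP libraries. Pcnp came first of 11386 genes (r = 0.966), then Tsc22d2 (0.871), Csgalnact2 (0.858), Ube2k (0.844) and Nfatc4 (0.843), which encodes a calcineurin-regulated factor. Over the 6 total RNA libraries the first of 12936 were Myl4 (r = 0.996), Gorasp1, Mamdc4, Tyms and Chst2 (0.979 to 0.984). These ranks describe few libraries, and none of the first 5 was shared between the fractions.

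Of the pathway around these genes, 4 other lists were followed. Among 36 other immediate early and early response genes, 3 of 29 tested rose after infarction in Salv cKO TRAP RNA and 0 fell, where 7.56% of genes rose. These were the antiproliferative gene Btg1 (log2 2.13, SE 0.45, edgeR adjusted p = 0.00263), the matricellular gene Cyr61 (1.65, SE 0.41, adjusted p = 0.00874) and the survival gene Mcl1 (0.46, SE 0.16, adjusted p = 0.049). In this list 6 rose with no scaling beyond the library total, these 3 with Ppp1r15a, Ctgf and Rhob. That setting called 2886 of 11393 genes in either direction and moved the median of all genes to 0.35. The marker changes given above for the same libraries stand beside these lists, and their part in the result was not tested. In control 0 of 29 passed by edgeR (6 at an unadjusted p under 0.05, against 14.1% of genes). DESeq2 called Cyr61, Ppp1r15a and Klf2 higher there, where it called 466 of 8773 genes in either direction. The clock gene Per1 fell in total RNA of Salv cKO (log2 -1.62, SE 0.21, edgeR adjusted p = 0.00329), 1 of 31 tested, where 0.255% of genes passed. The median of the list was 0.46 after infarction in Salv cKO and 0.27 in control.

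Among 28 inducers, 3 of 26 tested rose and 3 fell after infarction in Salv cKO, where 7.56% of genes rose and 10.6% fell. Srf, which encodes serum response factor, rose (log2 0.88, SE 0.22, edgeR adjusted p = 0.00837), as did its partner gene Elk4 (1.05, SE 0.24, adjusted p = 0.00502) and Mapkapk2. Creb1 fell (-1.03, SE 0.28, adjusted p = 0.0145), as did the MAP kinase kinase gene Map2k2 (-1.04, SE 0.17, adjusted p = 0.000408) and Mapk3. With no scaling beyond the library total 5 rose and 1, Map2k2, fell. That setting called 2886 of 11393 genes in either direction and moved the median of all genes to 0.35.

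Among 28 partners and inhibitors, 2 of 22 tested rose and 5 fell there, against the same 7.56% and 10.6% of genes. Atf4, a stress-response bZIP factor, rose (log2 0.80, SE 0.21, edgeR adjusted p = 0.0104), as did Atf2. Maf, another bZIP factor, fell (-1.33, SE 0.19, adjusted p = 9.12e-05), as did Spry2, an inhibitor of receptor tyrosine kinase signalling (-1.23, SE 0.27), Mxd4, a Max partner that opposes Myc (-0.96, SE 0.22), the EGR corepressor gene Nab1 and the phosphatase gene Dusp5. Maf was higher in sham Salv cKO than in sham control (1.03, SE 0.18, adjusted p = 0.00431), the same sham Salv cKO libraries against which it fell. It was the 1 of 22 tested that passed between sham genotypes, where 2.55% of genes passed. With no scaling beyond the library total 3 rose and 3, Maf, Spry2 and Mxd4, fell after infarction, where 2886 of 11393 genes were called.

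Among the chaperones, Hspb1 rose (log2 1.08, SE 0.19, edgeR adjusted p = 0.000778) and Hsp90aa1 fell (-1.24, SE 0.29, adjusted p = 0.00925) after infarction in Salv cKO, of 10 tested, where 7.56% of genes rose and 10.6% fell. With no scaling beyond the library total 5 rose (Dnaja1, Hspb1, Bag3, Hspa8 and Hspa1a) and Hsp90aa1 fell, where 2886 of 11393 genes were called. In sham Salv cKO Hspb1 (-1.10, SE 0.20, adjusted p = 0.00418) and Hspa8 (-0.85, SE 0.16, adjusted p = 0.00513) were lower than in sham control. These were 2 of 10 tested, where 136 of 11393 genes were lower. The same sham Salv cKO libraries are those against which Hspb1 rose, so its 2 values are not independent. In genotype after infarction in TRAP RNA, edgeR called 0 genes of these 4 lists (4, 2, 3 and 2 at an unadjusted p under 0.05, against 7.36% of genes). DESeq2 called 1, Nfil3, higher, where it called 74 of 13367 genes in either direction. For genotype by surgery edgeR called 0 (3, 2, 2 and 3, against 12.6%). DESeq2 called Mapk3 and Maf lower, where it called 110 of 2348 genes in either direction. After infarction in control edgeR called 0 inducers, partners or chaperones (6, 5 and 2, against 14.1%). DESeq2 called Mapkapk2, Atf4 and Dusp1 higher and Spry2 lower, where it called 466 of 8773 genes in either direction.

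After sham edgeR called 0 other early response genes and 0 inducers between genotypes (5 and 5 at an unadjusted p under 0.05, against 18.5% of genes). DESeq2 called Rhob lower, where it called 603 of 9692 genes in either direction. In total RNA edgeR called 0 inducers, partners or chaperones between genotypes (2, 4 and 2, against 13.8%), as did DESeq2. It called Sgk1 lower beside Per1, and 151 of 15360 genes in either direction. For genotype by fraction edgeR called 0 of the 4 lists (3, 6, 3 and 3, against 14.8%). DESeq2 called Camk2d higher, where it called 272 of 13183 genes in either direction.

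In TRAP against total RNA the lists differed. Chaperones were higher in TRAP RNA for 9 of 11 tested and lower for 0, where 34.4% of genes were higher and 39.9% lower, with a median log2 of 1.22 led by Hsp90aa1 (3.08, SE 0.19, edgeR adjusted p = 1.68e-12) and Bag3 (2.18, SE 0.15). With no scaling beyond the library total 7 were higher and 2 lower. That setting called 10403 of 13267 genes in either direction, with a median of all genes of -0.74.

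Of the other early response genes 8 of 31 were higher in TRAP RNA and 7 lower, among them Cebpb (2.47, SE 0.24), Jund, an AP-1 subunit (1.24, SE 0.14), and Ier3 (1.34, SE 0.15), against Tiparp (-2.12, SE 0.21). With no scaling beyond the library total 5 were higher and 15 lower, where 10403 of 13267 genes were called. Partners and inhibitors were higher for 3 of 24 and lower for 13, among them Max, the partner of Myc (-1.97, SE 0.18, edgeR adjusted p = 1.56e-09), and Zfp36l2, which promotes decay of AU-rich RNA (-2.66, SE 0.24). Of these partners 2, Mxd4 and Maf, were higher and 17 lower with no scaling beyond the library total, against the same 10403 of 13267 genes.

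Inducers were higher for 7 of 28 and lower for 14, with Map2k2 higher (2.94, SE 0.16) and Map2k1, its close relative, lower (-1.30, SE 0.15). Without scaling beyond the library total 1 inducer, Map2k2, was higher and 20 were lower, Map2k1 among them. In that setting 10403 of 13267 genes were called in either direction.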

How the data were processed

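Ion Proton libraries made with the Ion Total RNA-Seq kit v2, per the labels' protocols, were deposited by the authors as raw read counts per gene symbol, 1 file a library, with the same values in a table of the series for all 18. STAR 2.5, DESeq2 and the mm10 build are named per the submitters' processing notes. What tool and annotation counted the reads, and with which strand setting, is not stated in the sources used here.

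Counts were tested in R 4.3.3 with edgeR 4.0.16 (TMM scaling, filterByExpr by group, robust quasi-likelihood fit, two-sided test, Benjamini-Hochberg adjustment over all genes, threshold 0.05), after checks on simulated data. For genotype after infarction these recovered 40.8% of simulated 2-fold changes in TRAP RNA and 46.5% in total RNA. Of 4-fold changes they recovered 79.8% and 93%. For TRAP against total RNA the shares were 71.7% and 95%. A gene that did not pass may therefore have changed. The fits took 12 TRAP libraries (11393 genes), 6 total RNA libraries (12945 genes) and 12 libraries of infarcted hearts (13267 genes), which gave 8 comparisons of unblocked group means. Levels are CPM with 1 TMM scaling over the 18 libraries. The SE is the log2 fold change divided by the root of the quasi-F statistic. Library totals of 3240871 to 24135877 counts set the precision, and no library was left out. Alternatives were DESeq2 1.42.0, RLE or no scaling, no filter, a replicate block, the 2 groups alone, no sham libraries with Y chromosome counts, and leaving out each library. All 10 members are named in each comparison, and of every other list up to 4 passing genes with the smallest p, with further passing genes of a list named without values. The members, lists and tests were chosen with earlier results of these data known. Coordinates are of GRCm38, from GENCODE M21 or RefSeq.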

Additional observations from a re-analysis of the deposited data

How the results depend on the processing

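Of 887 alternative values of member fold changes, 797 kept direction and side of the threshold, 73 changed sign and 17 newly passed, and of 114 counts of members passing 104 were within 1.5 times the original. TRAP against total RNA kept Ier2, Atf3 and Myc under each alternative tried. Under no scaling 6 members passed (Jun, Fos and Egr1 added), where 10403 of 13267 genes passed and the median of all genes was -0.74. With no filter 5 passed (Jun and Nr4a1 added), where 11653 of 30307 genes passed. Without 1 library 3 to 5 members passed, with 9702 to 9950 genes called. After infarction in Salv cKO 1 member passed with no scaling (Junb), 1 with no filter and 1 with the 2 groups alone (both Atf3), and 0 to 1 without 1 library. The first 3 settings called 2886 of 11393, 2141 of 24863 and 1993 of 10380 genes. With no filter 1 passed after infarction in control and 1 for genotype in total RNA, Btg2 in both, where 566 of 24863 and 363 of 28919 genes passed. The cause was not tested.

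No scaling changed the sign for genotype in infarcted TRAP RNA of Ier2 (0.068) and Junb (0.075), for infarction in Salv cKO of Btg2 (0.091) and Egr1 (0.12), for genotype in total RNA of Ier2 (-0.045), for TRAP against total RNA of Btg2 (-0.23) and Junb (-0.29), and for genotype by fraction of Btg2 (0.22) and Ier2 (0.10). It moved the median of all genes by over 0.1 in all but infarction in control. RLE scaling changed Jun for genotype by surgery (-0.0011). Without the 2 sham libraries with Y chromosome counts Nr4a1 was -0.39 for infarction in Salv cKO, and for genotype by surgery Atf3 was -0.091 and Jun -0.23. None of these passed.

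Values of members that changed sign without 1 library are given as their range. For genotype in infarcted TRAP RNA they were Atf3 -0.71 to 0.84, Ier2 -0.39 to 0.29, Jun -0.10 to 0.93, Junb -0.28 to 0.30 and Nr4a1 -1.41 to 0.71. For genotype in sham TRAP RNA they were Btg2 -0.27 to 0.58, Egr1 -1.36 to 0.90, Jun -0.12 to 0.46, Junb -0.54 to 0.013 and Nr4a1 -1.80 to 1.28. For infarction in control they were Atf3 -0.089 to 1.58, Ier2 -0.024 to 0.50 and Nr4a1 -0.32 to 2.15. For infarction in Salv cKO they were Btg2 -0.61 to 0.24, Egr1 -0.63 to 1.44 and Nr4a1 -0.54 to 2.20. For genotype by surgery they were Egr1 -1.51 to 0.75, Jun -0.33 to 0.70, Junb -0.053 to 0.55 and Nr4a1 -1.98 to 1.10. For genotype in total RNA they were Atf3 -0.039 to 0.68, Egr1 -0.068 to 0.54, Ier2 -0.12 to 0.30 and Nr4a1 -0.55 to 0.014. For genotype by fraction they were Atf3 -1.01 to 0.51, Btg2 -0.42 to 0.34, Ier2 -0.51 to 0.12, Jun -0.29 to 0.69, Myc -4.09 to 1.497 and Nr4a1 -1.06 to 1.02.

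Called genes over all tests differed by over 1.5 times from the original with some settings: for genotype in infarcted TRAP RNA 38 became 74 with DESeq2, 106 with no filter and 58 with the 2 groups alone, for sham 291 became 603 with DESeq2, 651 with no filter, 440 with no scaling, 127 with the groups alone and 84 without the Y libraries, and for infarction in control 123 became 466, 566, 0 (no scaling) and 673 (without the Y libraries), and 0 to 628 without 1 library. For genotype by surgery 0 became 110 with DESeq2 and 160 with no filter, for genotype in total RNA 33 became 151 and 363, and for genotype by fraction 57 became 272 and 302.

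Same-numbered libraries showed no common deviation over all genes. Residual r ran from -0.157 to 0.114 over 18 TRAP pairs and had a mean of -0.0395 over 3 pairs of total RNA. Over 18 pairs of infarcted hearts, total against TRAP RNA among them, it ran from -0.152 to 0.0734. With 3 libraries a group this cannot exclude shared animals, litters or days, on which the labels are silent. A replicate block left 3 members passing in TRAP against total RNA, where 9747 of 13267 genes passed, and 0 in the other comparisons. It called 408 genes in place of 123 for infarction in control and 59 in place of 33 in total RNA. For genotype by fraction it called 31 in place of 57. Fos, Fosb and Myc had 0 to 13 counts in a TRAP library and did not pass the filter there.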
